A study of Mus musculus with 8 samples.

Results

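The Klf and Sp transcription factors are zinc finger proteins that bind GC-rich promoter elements, and 10 of them were followed here: Sp1, Sp3, Sp4, Klf2, Klf3, Klf4, Klf5, Klf6, Klf9 and Klf16. They were chosen by gene name from the 23284 genes of the deposited table, and all 10 were present. A mean level of at least 1 FPKM over all conditions was needed for testing, and 9 of the 10 passed, among 11452 genes tested. FPKM is a fragment count scaled by transcript length and library size, so levels of different genes can be compared. Klf4, at a mean of 0.477 FPKM, did not pass and is described by its values.

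The cells were P19, a mouse embryonal carcinoma line that stands for an undifferentiated early embryonic cell. They received an siRNA against Upf3a (siUpf3a) or a control siRNA (siControl), and 24 h later actinomycin D, which blocks transcription. RNA was collected at 0, 15, 105 and 225 min of actinomycin D in the siUpf3a arm and in the siControl arm, 8 conditions in all. Cells of both arms thus received the drug and differ in the siRNA and in the length of exposure. The question was how loss of UPF3A, a factor of nonsense-mediated mRNA decay (NMD), affects mRNA stability. The labels list 2 samples per condition, whose values the table gives as 1 FPKM between 2 confidence limits of unstated level. The number n therefore counts time points, and p-values measure disagreement between time points and not between cultures.

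Klf and Sp proteins share 3 zinc fingers at the carboxyl end, with which they recognise GC boxes (GGGCGG) and the related CACCC boxes (CCACCC). Sp1, Sp3 and Sp4 carry glutamine-rich activation domains, whereas Klf3, Klf9 and Klf16 act mostly as repressors through the corepressors CtBP or Sin3a. In mouse embryonic stem cells Klf2, Klf4 and Klf5 act with Oct4, Sox2 and Nanog to keep cells undifferentiated. Many genes of the family are induced quickly by growth factors, and their mRNAs are known for short lives.

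Because the family binds GC boxes, the promoters of its own genes are shown for the members whose arm difference was lowest and highest, Sp4 and Klf2. The windows are the 250 bases before the RefSeq start on GRCm38.p6, with GC boxes on either strand in capitals.
Sp4, chr12:118301441-118301690, minus strand: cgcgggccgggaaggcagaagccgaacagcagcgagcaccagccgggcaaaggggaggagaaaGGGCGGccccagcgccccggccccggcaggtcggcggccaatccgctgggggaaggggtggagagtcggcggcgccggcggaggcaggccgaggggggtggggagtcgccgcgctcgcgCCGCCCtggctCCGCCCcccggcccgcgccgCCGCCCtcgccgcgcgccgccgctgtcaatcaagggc
Klf2, chr8:72318812-72319061, plus strand: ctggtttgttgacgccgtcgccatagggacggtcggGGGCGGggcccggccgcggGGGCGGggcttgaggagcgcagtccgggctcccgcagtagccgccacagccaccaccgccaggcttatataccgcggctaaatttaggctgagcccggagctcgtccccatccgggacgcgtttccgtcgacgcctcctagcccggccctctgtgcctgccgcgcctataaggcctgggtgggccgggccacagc
The Sp4 window held 4 GC boxes and was 80.0% G and C, and the Klf2 window held 2 and was 71.2% G and C. RefSeq promoters were found for 8 members, with 2 for Sp3, and 8 of these 9 windows held a GC box, against 60.3% of the windows of tested genes. At least 4 GC boxes stood in 5 of the 9, against 8.93% of windows of tested genes. The CACCC box CCACCC was found on either strand in 3 of the 9, against 33.4%. Klf5 and Klf16 had no match in the promoter table. These matches describe letters in the window and not binding.

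The 3′UTR, where many short-lived mRNAs carry AU-rich elements, was searched on the coding strand for ATTTA and for the longer TTATTTATT, which contains it. All 10 members had at least 1 ATTTA, against 69.5% of tested genes with a coding transcript in GENCODE M21, and 8 had 3 or more, against 3839 of 10103 tested genes. Such counts depend on the length of the 3′UTR and were not adjusted for it. The median length was 1146 bases for tested genes. Members ran from 737 bases (Klf2) to 5372 bases (Sp1), with Klf2 and Klf4 (982 bases) alone below that median. The longer element stood in Klf16 and Klf5, against 8.08% of tested genes. Both sites are shown with their flanks, and the element is in capitals.
Klf16 (chromosome 10, position 676 of a 3′UTR of 1797 bases): gggaaagaaaTTATTTATTgtcctctctga
Klf5 (chromosome 14, position 1340 of a 3′UTR of 1707 bases): tgttttatcaTTATTTATTttgtggtaata
A feature that can make an mRNA an NMD target, an exon junction over 50 bases after the stop codon, was annotated in 0 of the 10 members' longest coding transcripts and in 0.386% of tested genes. Only transcripts annotated as protein coding were searched, which leaves out those annotated as NMD transcripts. Low counts were thus built into the search, and they cannot show that the members lack this feature. An annotated NMD transcript existed for Klf3 and Klf6, and for 29.7% of tested genes. An ATG upstream of the coding start was present in 5 members and in 52.1% of tested genes.

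Upf3a mRNA measured 5.27, 4.52, 4.76 and 4.16 FPKM at 0, 15, 105 and 225 min in siUpf3a cells, and 13.6, 14.0, 14.0 and 15.0 FPKM in siControl cells. Its mean was 33.1% of siControl, and the mean log2 ratio of -1.60 (SD 0.20, n = 4 time points) gave p = 0.125 in an exact two-sided sign-flip test, the smallest p that 4 pairs allow. Upf3b, the paralog that acts in NMD, averaged 79.6% of siControl with overlapping limits at each time, and was called lower (-0.30, limma adjusted p = 0.00650), but not under ribosomal protein scaling (0.0648). FPKM totals ran from 537350 to 923333, 10832 to 11600 genes reached 1 FPKM, and upper limits exceeded their FPKM by a median of 32.0% to 32.9%; read depth is unknown. Embryonal carcinoma markers were present in full, with 8 of 8 at 1 FPKM or more and summed levels of 2550 to 4275 FPKM in siUpf3a cells and 2075 to 3438 FPKM in siControl cells. Of these 8 markers, 7 were called higher in siUpf3a cells, where 26.1% of all tested genes were called higher and 22.3% lower. The part of these and the other marker differences in the results below was not tested. Neuronal markers summed to 41.3 to 56.8 FPKM in siUpf3a cells and 44.7 to 65.1 FPKM in siControl cells, with 1 of 4 above the filter, Tubb3, called lower in siUpf3a cells (-0.19, limma adjusted p = 0.0136). Endodermal markers summed to at most 2.54 FPKM in siUpf3a cells and 2.71 FPKM in siControl cells, and cardiac markers to at most 1.47 and 1.61 FPKM. Fibroblast markers summed to 7.18 to 10.6 FPKM in siUpf3a cells and 8.24 to 13.04 FPKM in siControl cells, and 1 of 3, Col1a2, was called lower (-0.54, limma adjusted p = 1.71e-04). No marker in the table was at 0 in all conditions.

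Sp4, an activator best known from neurons, was lower in siUpf3a cells than in siControl cells at every time, and it was the member with the largest arm difference. It measured 5.31, 4.99, 2.29 and 1.49 FPKM at 0, 15, 105 and 225 min in siUpf3a cells, and 11.4, 12.1, 6.31 and 4.60 FPKM in siControl cells. The 2 arms were thus apart at each time, with siUpf3a at 46.8%, 41.3%, 36.3% and 32.5% of siControl. The deposited confidence limits were separate at all 4 times; at 0 min they ran from 3.62 to 7.01 FPKM in siUpf3a cells and from 7.93 to 14.8 FPKM in siControl cells. Of all tested genes 0.0873% (10 genes) were lower in siUpf3a cells with limits apart at all 4 times. For 0 and 15 min alone the share was 0.122% (14 genes), and for 105 and 225 min alone 0.262% (30 genes). On the log2(FPKM + 1) scale, where the added 1 shrinks differences of low genes, the arm difference was -1.10 (SE 0.048, limma adjusted p = 4.74e-05, n = 4 time points), the 27th lowest of 11452, and -0.66 with a pseudocount of 5. The gene lies on the minus strand of chromosome 12, at 118234933 to 118301440 (GRCm38). In bulk RNA, fewer cells that express a gene and less RNA per cell cannot be told apart.

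Sp1, the founding GC-box activator and the most abundant member, was also lower in siUpf3a cells at all 4 times, by a smaller amount. It measured 33.9, 30.6, 21.7 and 12.3 FPKM in siUpf3a cells, and 41.6, 42.1, 27.3 and 17.0 FPKM in siControl cells. The limits overlapped at each time. The fitted difference was -0.37 (SE 0.047, limma adjusted p = 7.68e-04). Sp3, which binds the same sites and can activate or repress, measured 26.2, 24.9, 13.1 and 7.57 FPKM in siUpf3a cells, and 29.0, 27.3, 15.2 and 7.83 FPKM in siControl cells. It was lower at all 4 times, and its limits overlapped throughout. Sp3 shares its locus with another gene in the table, whose reads may be mixed with its own. The difference of Sp3 was -0.13 (SE 0.044, limma adjusted p = 0.0451). It did not pass without 0, 15 or 105 min (adjusted p = 0.118, 0.129 and 0.162), with a pseudocount of 0.1 (0.0550), or when conditions were scaled to ribosomal protein genes (0.447, with the difference at -0.045). As a share of the summed Sp1, Sp3 and Sp4 levels, Sp4 made up 8.13%, 8.25%, 6.16% and 6.998% over the 4 times in siUpf3a cells, and 13.9%, 14.8%, 12.9% and 15.6% in siControl cells.

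**Figure D1:**
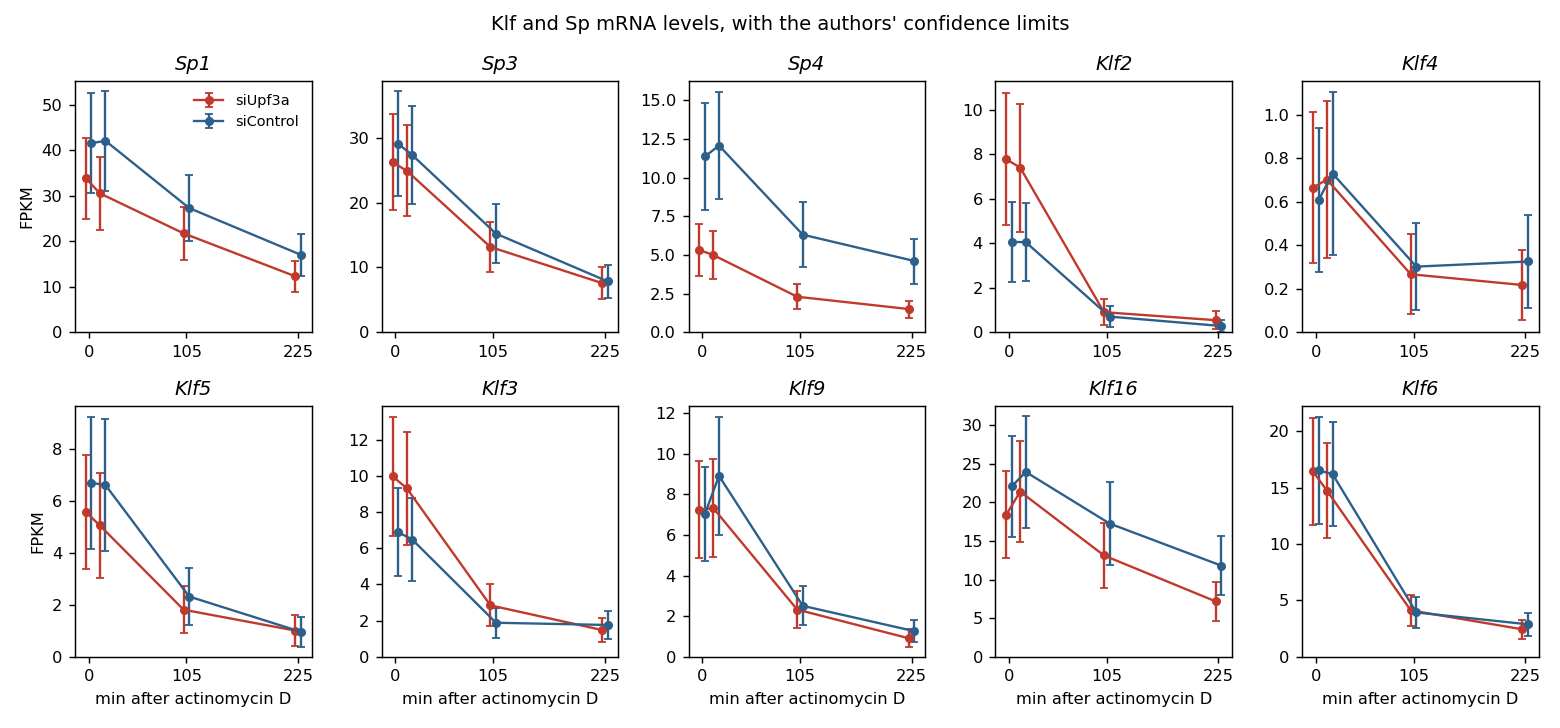
FPKM of the 10 Klf and Sp members (vertical axes, from 0, each gene on its own scale) against minutes after actinomycin D, in siUpf3a (red) and siControl (blue) cells; points are the deposited values at 0, 15, 105 and 225 min, slightly offset, and bars are the authors' confidence limits. The Sp4 limits stay apart at all 4 times, Klf2 starts at 7.78 FPKM in siUpf3a cells and 4.06 FPKM in siControl cells, and every member is lower at 225 min than at 0 min in both arms.

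Among the factors tied to the undifferentiated state, Klf2 was higher in siUpf3a cells at every time, Klf5 was lower in siUpf3a cells at 3 of 4 times, and Klf4 was barely detected. Klf2 measured 7.78, 7.40, 0.899 and 0.539 FPKM in siUpf3a cells, and 4.06, 4.05, 0.700 and 0.276 FPKM in siControl cells. Its ratio of siUpf3a over siControl was 1.92, 1.83, 1.28 and 1.95 over the 4 times, and the limits overlapped at each of them. The fitted difference was 0.49 (SE 0.11, limma adjusted p = 0.00920), and the adjusted p became 0.0519 when no filter on low values was used. With a pseudocount of 5 the difference was 0.27. Klf2 occupies 72319033 to 72321656 of chromosome 8, on the plus strand of GRCm38. Klf5 measured 5.59, 5.07, 1.82 and 1.01 FPKM in siUpf3a cells, and 6.71, 6.63, 2.32 and 0.964 FPKM in siControl cells. Its arms met at 225 min. The difference of -0.19 (SE 0.063, limma adjusted p = 0.0408) passed in 3 of 11 alternatives only, and without 0, 15 or 105 min the adjusted p was 0.121, 0.154 and 0.128. Klf4 measured 0.665, 0.702, 0.266 and 0.217 FPKM in siUpf3a cells, and 0.607, 0.730, 0.301 and 0.325 FPKM in siControl cells. These values overlap between arms within the limits at each time, and when no filter was used the difference of Klf4 was -0.034 (limma adjusted p = 0.535).

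The members known mainly as repressors went different ways. Klf3, which recruits CtBP, measured 9.98, 9.33, 2.85 and 1.48 FPKM in siUpf3a cells, and 6.89, 6.49, 1.88 and 1.76 FPKM in siControl cells. It was higher in siUpf3a cells up to 105 min and lower at 225 min, with overlapping limits throughout. The difference was 0.30 (SE 0.10, limma adjusted p = 0.0480) and did not pass without 0, 15 or 105 min (adjusted p = 0.168, 0.148 and 0.152), with a pseudocount of 0.1 (0.0884), without a filter (0.147) or with median-of-ratios scaling (0.0659). Without 225 min it was 0.45, and with a pseudocount of 5 it was 0.20. Klf16, a Sin3a-binding repressor, measured 18.4, 21.4, 13.1 and 7.17 FPKM in siUpf3a cells, and 22.1, 23.9, 17.3 and 11.8 FPKM in siControl cells. Klf16 was lower in siUpf3a cells at all 4 times, at 83.4%, 89.4%, 76.0% and 60.7% of siControl. Its difference was -0.36 (SE 0.079, limma adjusted p = 0.00855), and it missed the threshold under ribosomal protein scaling (-0.27, adjusted p = 0.0585). Klf9, a Sin3a-binding repressor induced by thyroid hormone and glucocorticoids, measured 7.25, 7.32, 2.33 and 0.911 FPKM in siUpf3a cells, and 7.05, 8.92, 2.51 and 1.26 FPKM in siControl cells. Klf9 shares its locus with a microRNA gene. Its difference of -0.13 (SE 0.059) did not pass (limma adjusted p = 0.0971), but did without 0 min (-0.19, adjusted p = 0.0422). Klf6, a widely expressed early response gene, measured 16.4, 14.7, 4.11 and 2.44 FPKM in siUpf3a cells, and 16.5, 16.2, 3.93 and 2.88 FPKM in siControl cells. Its arms lay together, with a difference of -0.065 (SE 0.051, limma adjusted p = 0.328).

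Of the 9 members tested, 2 were called higher in siUpf3a cells (Klf2 and Klf3), 5 lower (Sp1, Sp3, Sp4, Klf5 and Klf16) and 2 were not called. Over all tested genes 26.1% were called higher and 22.3% lower, so calls are common in this fit. The median difference was -0.13 for the members and 0.0046 for all genes tested. Scaling to the 77 ribosomal protein genes gave 3871 genes higher and 1245 lower, against 2986 higher and 2557 lower as deposited. The authors' limits set a stricter reading: of 40 pairs of a member and a time, 4 had limits apart, all of them Sp4. Counted by gene, Sp4 alone among the members had limits apart at any time. Among all tested genes 2.9% (332 genes) had limits apart at any time in either direction. The share over all pairs of a gene and a time was not computed. Sp1 and Sp4 were called lower in all 12 alternative settings tried, Klf16 in 11 of 12 and Klf2 higher in 10 of 11, since Klf2 does not pass the alternative filter of 5 FPKM.

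**Figure D2:**
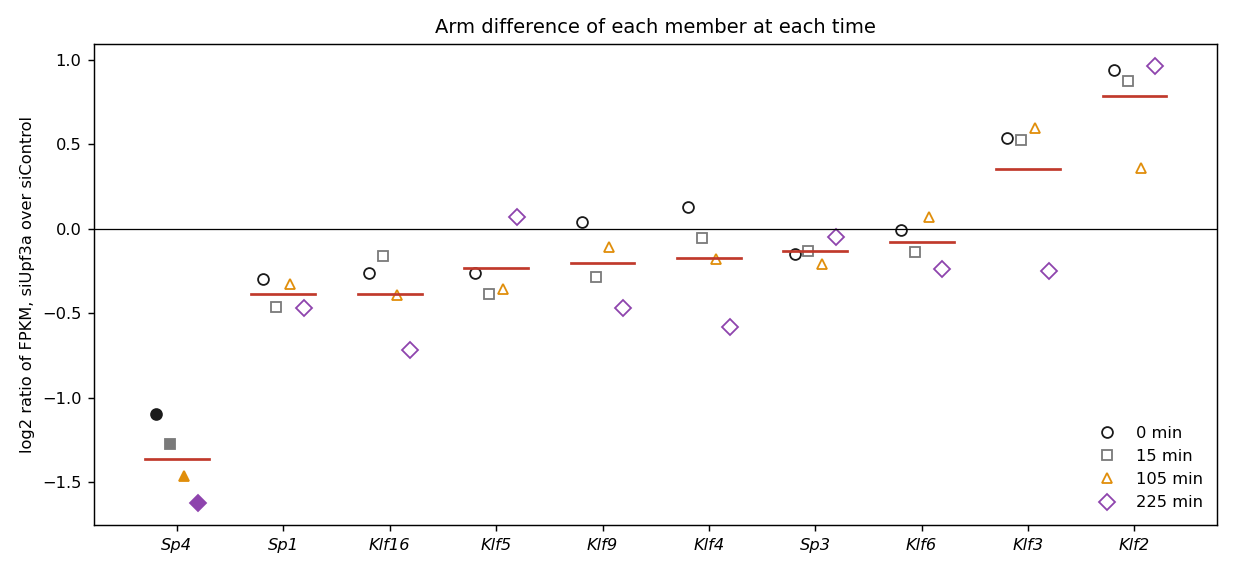
Log2 ratio of siUpf3a over siControl FPKM (vertical axis) for each member at 0, 15, 105 and 225 min (symbols), ordered by the mean over times (red line); filled symbols mark times at which the deposited limits were separate. Sp4 alone has filled symbols, Klf2 lies above 0 at all 4 times, and Sp1, Sp3, Sp4 and Klf16 lie below 0 at all 4.

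All 9 members tested were lost after actinomycin D over both arms. Klf2 kept the smallest share, with 6.92% of its 0 min level left at 225 min in siUpf3a cells and 6.81% in siControl cells. Its slope over hours was -0.64 log2 units per h (SE 0.096), and that of Klf6 was -0.64 (SE 0.079). Klf9, Klf3 and Klf5 followed at -0.58, -0.52 and -0.51 per h, then Sp3 at -0.47, Sp1 and Sp4 at -0.35 each and Klf16 at -0.31. Differences between members were not tested, and the order depends on the pseudocount, since slopes of low genes shrink most with it. With a pseudocount of 5 the slopes were -0.29 for Klf2, -0.28 for Klf3, -0.25 for Klf5, -0.42 for Klf6, -0.30 for Klf9 and -0.21 for Sp4, and with a pseudocount of 0.1 that of Klf2 was -1.01. Without 225 min the slopes were steeper for several members, among them Klf2 (-1.14), Klf6 (-1.07), Klf3 (-0.88), Klf9 (-0.79) and Klf5 (-0.72). The limma adjusted p ran from 6.37e-07 to 2.92e-04 over the 9. In this fit SE and p also depend on how far the values depart from a straight line over hours. Over all tested genes 38.6% were called with a negative slope, and the median slope was -0.51 for the members and 0.014 for all genes. The members stood between the 0.773 and the 12.7 percentile of slopes. FPKM has no outside standard, so slopes are relative to the bulk of mRNA. Scaled to ribosomal protein genes, the median slope of all genes moved to -0.23 and the calls of all genes to 53 higher and 10670 lower, against 4891 and 4423 as deposited. The members' slopes then ran from -0.87 to -0.57, with a median of -0.72, all below that of all genes.

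The share left at 225 min needs no pseudocount. Klf6 kept 14.8% in siUpf3a cells and 17.4% in siControl cells, Klf9 kept 12.6% and 17.9%, and Klf5 kept 18.1% and 14.4%. Sp3 kept 28.9% in siUpf3a cells and 27.0% in siControl cells, and Sp1 kept 36.3% and 40.9%. Klf16 kept 39.0% in siUpf3a cells and 53.5% in siControl cells. The median over all tested genes was 104.7% in siUpf3a cells and 102.4% in siControl cells. The limits at 225 min lay wholly below those at 0 min in both arms for 8 members, and for 17.1% of all tested genes. Klf16 met this in siUpf3a cells only and Klf4 in neither arm, with 32.6% left in siUpf3a cells and 53.5% in siControl cells.

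Little was lost in the first 15 min, when the members' log2 changes of FPKM ran from -0.16 to 0.22 in siUpf3a cells and from -0.087 to 0.34 in siControl cells. Most members then fell faster from 15 to 105 min than from 105 to 225 min, and this held in both arms for 9 of 10. The share of all tested genes that did so was not computed, so this is not shown to be particular to the members. The 9 include Klf4, which did not pass the filter. For Klf16 the margin was small, with -0.47 then -0.44 per h in siUpf3a cells and -0.31 then -0.27 in siControl cells. Klf2 fell by 2.03 log2 units per h in siUpf3a cells and by 1.69 in siControl cells in the earlier interval, and by 0.37 and 0.67 per h in the later one. Klf6 fell by 1.23 per h in siUpf3a cells and by 1.36 in siControl cells, then by 0.38 and 0.22. Sp1 was the exception, with -0.33 per h in siUpf3a cells and -0.42 in siControl cells in the earlier interval, then -0.41 and -0.34. These rates are differences of 2 values each, and Klf2 was under 1 FPKM at the later times.

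**Figure D3:**
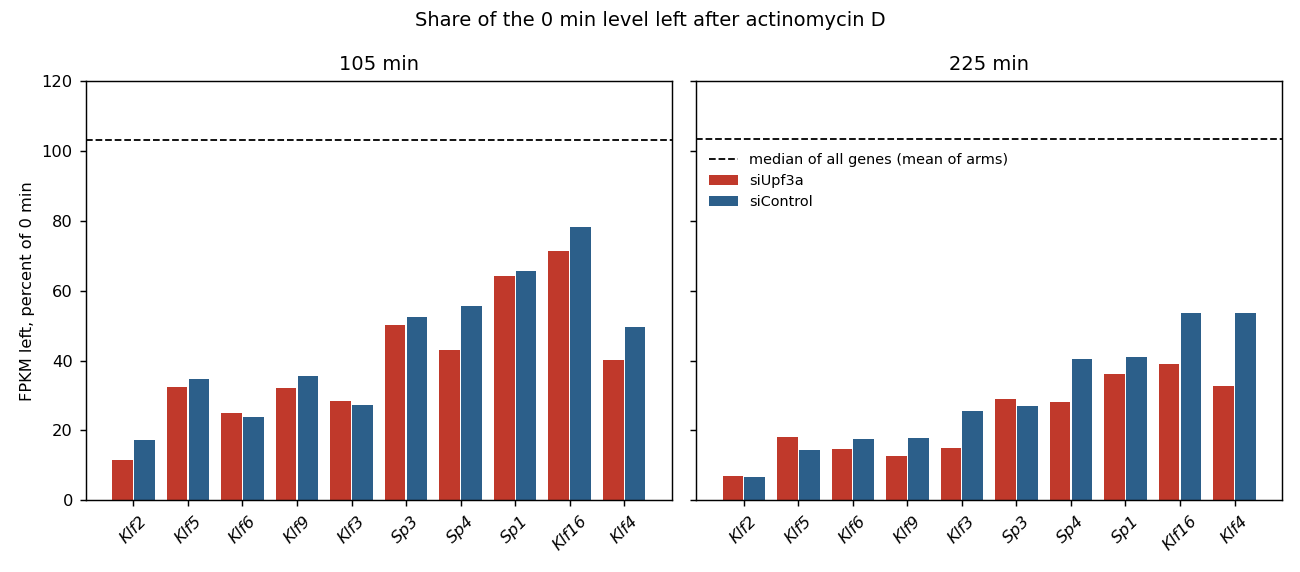
FPKM left at 105 min (left) and 225 min (right) as a percent of the 0 min level (vertical axis) for each member, in siUpf3a (red) and siControl (blue) cells; bars are single values without error and the dashed line is the median of all tested genes, averaged over arms. At 225 min Klf2 keeps 6.92% in siUpf3a cells and 6.81% in siControl cells, while Klf16 keeps 39.0% and 53.5%.

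Whether loss differed between the arms was the question closest to the study's aim, and 0 of the 9 members passed that test. The limma adjusted p ran from 0.646 to 0.908, and 4 members had an unadjusted p under 0.05. Over all tested genes 0.00873% (1 gene) were called, and 762 had an unadjusted p under 0.05. A moderated fit with trend and robust settings called 6 genes and 0 members. A p above the threshold does not show that members were lost at the same rate in both arms. The 4 members with a low unadjusted p were Klf3 (-0.16 log2 units per h, SE 0.037), Klf2 (-0.15, SE 0.051), Klf16 (-0.12, SE 0.030) and Klf5 (0.081, SE 0.031), where a negative value means faster loss in siUpf3a cells. For Klf3 the values diverge at 225 min alone, with 14.8% left in siUpf3a cells and 25.5% in siControl cells, after 28.5% and 27.3% at 105 min. For Klf2 the share left was 11.6% in siUpf3a cells and 17.3% in siControl cells at 105 min. At 225 min it was nearly the same in both arms, at 6.92% and 6.81%. Klf2 was then under 1 FPKM, where the added 1 weighs most, and its difference in slope ran from -0.37 to -0.053 over the alternatives. Without 225 min the differences in slope were -0.034 for Klf3, -0.37 for Klf2 and 0.017 for Klf5. Sp4 kept 43.1% at 105 min in siUpf3a cells and 55.5% in siControl cells, then 28.1% and 40.5% at 225 min. On the log2(FPKM + 1) scale the difference in slope of Sp4 was -0.037 per h (SE 0.031, adjusted p = 0.806). It was -0.11 with a pseudocount of 0.1 (adjusted p = 0.665) and 0.042 with a pseudocount of 5 (0.685), and without 225 min it was -0.073. Sp4 in siUpf3a cells was at 46.8% of siControl at 0 min and at 32.5% at 225 min. What set the lower level at 0 min was not tested.

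Ordered by the siControl mean over times, the levels were 32.0 ± 12.1 FPKM for Sp1, 19.9 ± 10.1 for Sp3, 18.8 ± 5.43 for Klf16, 9.88 ± 7.49 for Klf6 and 8.59 ± 3.70 for Sp4 (SD, n = 4 time points). Klf9 at 4.93 ± 3.64 FPKM, Klf3 at 4.26 ± 2.82, Klf5 at 4.16 ± 2.95, Klf2 at 2.27 ± 2.07 and Klf4 at 0.491 ± 0.211 followed. Every neighbouring pair in this order overlapped in its range over the 4 times, since the spread includes the loss under actinomycin D. In siUpf3a cells Sp4 averaged 3.52 ± 1.91 FPKM, below Klf9 at 4.45 ± 3.32 and Klf3 at 5.91 ± 4.37. Klf2 averaged 4.16 ± 3.97 FPKM there. The 10 members made up 66.4% to 68.3% of the summed FPKM of the whole Klf and Sp family in siUpf3a cells and 64.5% to 68.4% in siControl cells.

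The rest of the family comprised 16 genes in the table, of which 9 passed the filter. In siUpf3a cells 1 was higher, 5 were lower and 3 were not called, with a median difference of -0.17. Klf10, a repressor induced by TGF-beta, measured 9.99, 9.07, 2.78 and 1.85 FPKM in siUpf3a cells, and 18.7, 19.4, 5.06 and 2.99 FPKM in siControl cells. It was lower at all 4 times, with a difference of -0.76 (SE 0.083, limma adjusted p = 4.30e-04). Klf11, its closest relative, averaged 2.54 ± 1.42 FPKM in siUpf3a cells and 4.52 ± 2.74 FPKM in siControl cells, a difference of -0.58 (limma adjusted p = 5.92e-04). Sp2 averaged 10.7 ± 5.46 FPKM in siUpf3a cells and 14.7 ± 7.89 FPKM in siControl cells, a difference of -0.41 (limma adjusted p = 5.14e-04). Klf7 had a difference of -0.20 (limma adjusted p = 0.0139), which did not pass without 15 min (0.0654), without 105 min (0.0554) or when scaled to ribosomal protein genes (0.153). Sp8, the 1 gene called higher, and Klf12, the fifth called lower, had differences of 0.14 and -0.17 and fall outside the naming rule. All 9 had negative slopes, with Klf10 at -0.60 per h, Sp2 and Klf13 at -0.50 each and Klf15 at -0.45. Without 225 min the slope of Klf10 was -0.97. The difference in decay passed for 0 of the 9.

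**Figure D4:**
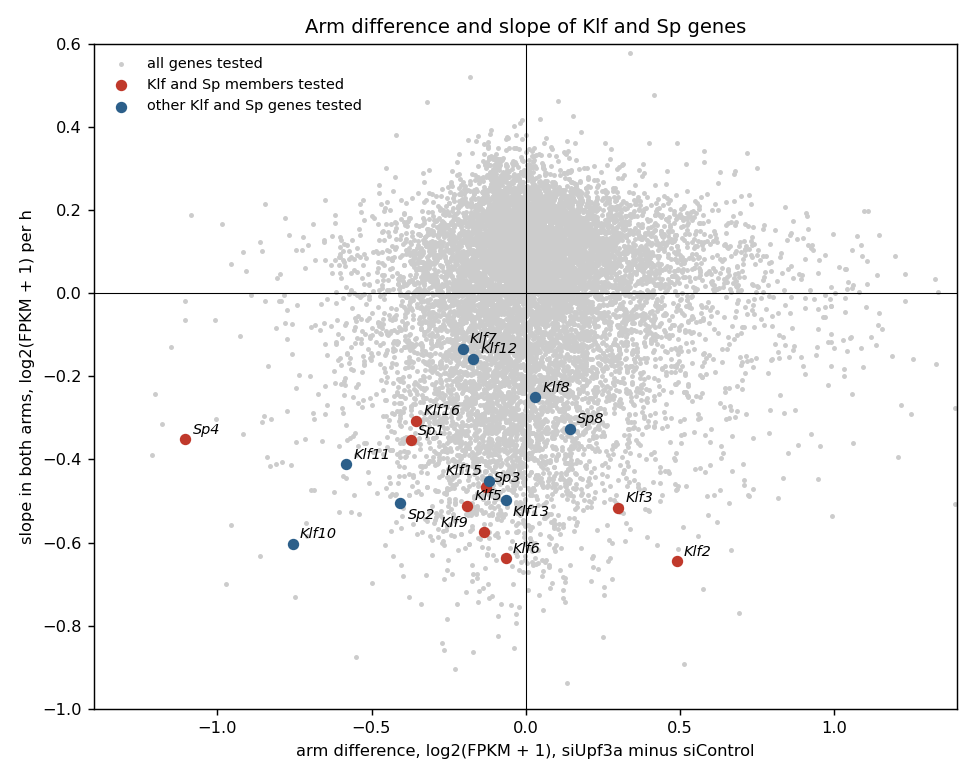
Arm difference (horizontal axis, log2(FPKM + 1), siUpf3a minus siControl) against slope over hours in both arms (vertical axis, log2 units per h) for tested Klf and Sp genes (red, the members; blue, the rest of the family) over all tested genes (grey; 38 of 11452 lie outside the axes). All Klf and Sp genes lie below 0 on the vertical axis, with Sp4 at -1.10 and Klf2 at 0.49 on the horizontal one.

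Factors that act on or with the family include its corepressors and the signals that induce it. Of 25 regulators and cofactors, all tested, 7 were higher in siUpf3a cells, 3 lower and 15 not called, with a median difference of 0.028. The CtBP corepressors were among the higher ones: Ctbp1 averaged 74.5 ± 17.6 FPKM in siUpf3a cells and 51.2 ± 10.2 FPKM in siControl cells (difference 0.53, limma adjusted p = 3.71e-04). Ctbp2 averaged 33.6 ± 2.27 FPKM in siUpf3a cells and 24.4 ± 1.48 FPKM in siControl cells (difference 0.44, limma adjusted p = 2.09e-04). Ogt, the enzyme that adds N-acetylglucosamine to Sp1 and other nuclear proteins, had a difference of 0.45, and Mef2d, of the MEF2 factors that induce Klf2 in endothelial cells, 0.37. Over time 4 of the 25 rose, 16 fell and 5 were not called, where 42.7% of all tested genes were called with a positive slope, and the steepest falls were those of Foxo1 (-0.66 per h), Nfya (-0.55), Sin3a (-0.51) and Socs3 (-0.47, and -0.87 without 225 min).

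Of 14 naive pluripotency partners 9 passed the filter, 5 were higher in siUpf3a cells, 1 was lower and 3 were not called, with a median difference of 0.15. Nanog averaged 70.9 ± 10.4 FPKM in siUpf3a cells and 45.3 ± 7.73 FPKM in siControl cells (difference 0.64, limma adjusted p = 9.14e-05). Lin28a, an RNA-binding protein that blocks let-7 maturation, had a difference of 0.43, Sall4 0.26 and Nr0b1 0.20. The call of Sall4 was lost without 0, 15 or 105 min (limma adjusted p = 0.0756, 0.0741 and 0.0774). Over time 4 of the 9 rose and 5 fell: Sox2 fell at -0.68 per h, Sall4 at -0.44 and Tbx3 at -0.23 (-0.44 without 225 min), whereas Pou5f1, which encodes Oct4, rose at 0.27 per h relative to the bulk. The rise of Pou5f1 turned to -0.024 when scaled to ribosomal protein genes and lost its call under quantile normalization (limma adjusted p = 0.958).

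Of 20 known Sp1 and Klf target genes 18 were tested, 5 were higher in siUpf3a cells, 4 lower and 9 not called, with a median difference of 0.041. The largest were Tk1 (30.3 ± 4.30 FPKM in siUpf3a cells and 17.2 ± 1.747 FPKM in siControl cells, difference 0.78, limma adjusted p = 1.01e-04) and Ccnd1 (21.2 ± 1.34 FPKM in siUpf3a cells and 12.01 ± 0.911 FPKM in siControl cells, difference 0.77, limma adjusted p = 5.63e-05). Tk1 encodes thymidine kinase and Ccnd1 encodes cyclin D1. Lefty1, a Nodal antagonist known as a joint target of Klf4, Oct4 and Sox2, had a difference of 0.56, and Tgfb1 0.52. Over time 9 rose, 7 fell and 2 were not called, with Lefty1 at -0.58 per h, Fgf4 at -0.57 and Cdkn1a at -0.45; without 225 min Fgf4 was at -0.89 and Cdkn1a at -0.77. The share of these targets called higher or lower is to be read against the 26.1% and 22.3% of all tested genes, as for the lists above. Counts that rose or fell over time, here and in those lists, are likewise to be read against all tested genes. Of these, 42.7% were called with a positive slope and 38.6% with a negative one.

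The genes whose log2(FPKM + 1) over the 8 conditions was most like that of Sp4 were Tank (Pearson r = 0.989), Arfip1 (0.989) and Zbtb7b (0.986), among 7607 genes with a mean of 5 FPKM or more. Arm differences were smaller in all of them, at -0.52 for Tank, -0.16 for Arfip1 and -0.56 for Zbtb7b. For Klf2 they were Myc (0.995), Spry2 (0.994) and Rock2 (0.991) among 7608 genes. Myc, an unstable mRNA of a growth-promoting transcription factor, averaged 8.32 ± 7.56 FPKM in siUpf3a cells and 4.70 ± 4.14 FPKM in siControl cells, with an arm difference of 0.58 and a slope of -0.71 per h. Spry2, an inhibitor of growth factor signalling, averaged 10.6 ± 7.80 FPKM in siUpf3a cells and 6.87 ± 4.90 FPKM in siControl cells. The 8 conditions share the course of time and the arms, so r over them is a description, and 63 genes reached 0.95 with Sp4 and 197 with Klf2.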

How the data were processed

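RNA of P19 cells was extracted with Trizol and sequenced from standard Illumina libraries, per the labels' protocols. TopHat2, Cufflinks and the mm10 build are named in the submitters' processing notes; versions, the annotation and whether strand was used are not given in the sources used here. The authors deposited 1 FPKM value per gene and condition, with confidence limits and a status, per the file headers; how the 2 samples of a condition were combined is not stated. FPKM holds no counts, so depth is unknown. All members had a valid status. Klf9 and Sp3 each share a locus with another gene in the table, and reads of such pairs may be mixed, which was not tested.

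From these values log2(FPKM + 1) was taken for genes that averaged at least 1 FPKM, and limma 3.58.1 in R 4.3.3 fitted all 11452 genes, with Benjamini-Hochberg adjusted p below 0.05 as the threshold. The arm difference used time point as a factor plus arm (3 residual degrees of freedom), the difference in decay an arm-by-hours term (2), and the slope arm plus hours (5). Fits were tested on simulated data. Figures used Python 3.11.15.

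Members and gene lists were chosen with earlier results of these data known. Named beside the members are Upf3a, Upf3b, up to 4 called genes per list and comparison by size of effect, and the 3 genes closest in pattern to Sp4 and Klf2. One gene that this rule picks is not reported here. Transcript features are those of the longest basic coding transcript in GENCODE M21 (GRCm38), found for 88.2% of tested genes. A planned comparison of the members' proteins was not run. Alternatives were pseudocount, filter, scaling, moderation and leaving out each time.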

Additional observations from a re-analysis of the deposited data

How the results depend on the processing

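The time points already pair the arms in the fit of the arm difference and in the sign-flip test. No replicate block could be added to them, because each condition holds 1 value. Members called between the arms numbered 7 as reported and 4 with a pseudocount of 0.1, without a filter and under ribosomal protein scaling, and ranged from 4 to 7 on leaving out 1 time. The difference of Klf6 turned to 0.019 under ribosomal protein scaling. Calls of a difference in decay over all genes numbered 1 as reported, 0 without a filter and 6 with trend and robust moderation, and ranged from 2 to 22 on leaving out 1 time; 0 members were called in any of these. That difference changed sign for Klf6 (0.000576), Sp1 (0.011), Sp4 (0.000486) and Upf3b (0.0023) under quantile normalization, for Sp3 (-0.013) under ribosomal protein scaling and for Sp4 (0.042) with a pseudocount of 5. On leaving out 1 time it ranged from -0.046 to 0.065 for Klf6, from -0.041 to 0.021 for Sp1, from -0.035 to 0.028 for Sp3 and from -0.061 to 0.033 for Upf3b, changing sign for all 4 without 225 min and for Upf3b also without 0 min (0.027). The slope of Upf3a became 0.076 under quantile normalization, and those of Upf3b and Pou5f1 became -0.10 and -0.024 under ribosomal protein scaling. Genes lower with limits apart numbered 10 at all times and 30 at 105 and 225 min; fewer times had to pass. The cause of the other changes was not tested. The slopes of all members tested were called in every alternative, 105 values in all, but their sizes moved, for Klf2 from -1.14 to -0.29. The mean log2 ratio of Upf3a ranged from -1.68 to -1.52 on leaving out 1 time. With 1 value per condition and unknown depth, differences that were small against the disagreement between times may have been missed.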
